A study of Homo sapiens with 6 samples.

Results

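Interferon-stimulated genes were followed here in H226, a human lung squamous carcinoma line that carries a doxycycline-inducible shRNA against p63, a transcription factor of basal and squamous epithelium. They were chosen by name, from a list of 31 genes whose transcription interferon is known to raise. A probe set naming exactly 1 gene stood for each of 30 of them, out of 18404 genes measured in this way, and STAT2 was not analysed here. The series holds 6 HuGene 1.0 ST arrays from Affymetrix, a pair per group. Nutlin-3, a small molecule that frees p53 from the ubiquitin ligase MDM2, was given at 10 µM for 12 h to cells whose shRNA stayed off. In shp63 ON the shRNA was induced over 48 h by doxycycline at 1 µg/mL, and control is the same line, uninduced and without drug. Only shp63 ON saw doxycycline, so effects of the drug, of an shRNA as such and of less p63 cannot be told apart, and the lengths of treatment differ. The knockdown was not checked on these arrays, since p63's own gene was not analysed here.

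Interferons of type I and type III are secreted cytokines that signal through different receptors to the same kinases, JAK1 and TYK2, and to a transcription factor complex that contains IRF9. That complex binds the interferon-stimulated response element, a short promoter sequence, and turns on genes whose products sense viral RNA, degrade it or hold back the virus. Many epithelial cells keep a low level of these transcripts without added interferon.

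The response element can be read directly in the promoters of the members, and it was looked for as GAAA, any 2 bases and GAAA again, on either strand with overlapping matches allowed, from 250 bases before to 50 bases after each start in RefSeq (GRCh38.p14). Of the 30 members, 24 had an entry. The element was found in 17 of these 24 genes, against 4.38% of the 27305 genes in the table. Below are stretches from 4 members that were higher in shp63 ON, from OAS3, which was lower, and from 4 members that passed in neither comparison. Each is written 5′ to 3′ on the strand of its gene, with the matches in capitals. A match on the opposite strand reads TTTC, 2 bases and TTTC.
IFIH1 (chr2:162318685-162318863, minus strand): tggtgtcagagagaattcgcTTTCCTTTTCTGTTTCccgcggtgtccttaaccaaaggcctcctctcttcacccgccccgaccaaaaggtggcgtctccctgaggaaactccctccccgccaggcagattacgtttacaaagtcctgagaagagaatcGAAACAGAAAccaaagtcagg
IFIT1 (chr10:89392487-89392549, plus strand): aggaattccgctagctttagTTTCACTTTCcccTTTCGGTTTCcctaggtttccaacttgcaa
ISG15 (chr1:1013364-1013419, plus strand): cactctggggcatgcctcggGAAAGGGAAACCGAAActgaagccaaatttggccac
ISG20 (chr15:88638927-88638976, plus strand): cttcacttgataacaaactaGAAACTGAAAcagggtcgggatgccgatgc
OAS3 (chr12:112938311-112938473, plus strand): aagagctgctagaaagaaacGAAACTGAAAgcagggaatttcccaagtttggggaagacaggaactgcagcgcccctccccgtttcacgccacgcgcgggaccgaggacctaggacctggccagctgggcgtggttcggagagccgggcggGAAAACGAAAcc
BST2 (chr19:17405725-17405780, minus strand): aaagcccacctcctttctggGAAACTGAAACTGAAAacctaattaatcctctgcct
HERC5 (chr4:88456974-88457074, plus strand): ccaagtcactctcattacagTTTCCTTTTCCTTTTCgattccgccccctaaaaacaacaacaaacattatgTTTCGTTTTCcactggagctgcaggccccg
IFI44 (chr1:78649751-78649800, plus strand): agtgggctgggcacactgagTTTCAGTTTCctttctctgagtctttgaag
IFI6 (chr1:27672256-27672368, minus strand): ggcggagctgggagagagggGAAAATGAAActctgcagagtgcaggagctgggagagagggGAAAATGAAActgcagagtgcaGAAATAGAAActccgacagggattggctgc

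The letters did not sort the members by response. Of the 10 responding members with an entry, 6 held a match, and of the 14 flat members 11 did. RIGI, OAS1, HERC6 and XAF1, which were higher in shp63 ON, had no match in these windows. The gamma-activated site, TTC, any 3 bases and GAA, which reads the same on both strands, stood in 1 of the 10 responding and 5 of the 14 flat members, against 9.38% of all genes.

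Values below are log2 probe set intensities, and a difference is that of 2 group means on this scale with limma's standard error (SE). A gene was called higher or lower at a Benjamini-Hochberg adjusted p under 0.05 over all 18404 genes, and every adjusted p below is from limma unless named otherwise. Across genes, r was 0.997 to 0.998 within groups and 0.975 to 0.989 across them. An exact two-sided permutation test of 2 arrays against 2 can reach 0.333 at best, so none is given. Nothing in the labels says that the arrays of a group came from separate cultures, and the spread behind these p-values may be technical. Probe sets under a log2 intensity of 6.29, the 95th percentile of 340 olfactory receptor genes, are called dim, and 11 of the 30 members were dim. Squamous markers were present: 7 of 8 measured were above that floor. Leukocyte markers were under it for 8 of 11 measured.

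With the p63 shRNA on, a part of the list stood above control and 27 of the 30 members had a positive difference. No share of all genes is given for this count of signs, and the median over all genes was itself positive. Of the 30 members, 12 were called higher and 1 lower, and 17 missed the threshold. Their median difference was 0.27. Over all genes 19.7% were called higher and 16.5% lower, with a median of 0.04. The rises ran from 1.21-fold to 1.45-fold, so none was large. With Nutlin-3, 0 members were called higher and 1 was called lower, RIGI, with a median of −0.05, against 9.64% of all genes called higher and 8.89% called lower. At an unadjusted p under 0.05, limma put 17 members higher and 1 lower in shp63 ON, where 46.9% of all genes passed, and 3 higher and 7 lower with Nutlin-3, where 32.9% did. The Nutlin-3 count is thus near the background. After adjustment, an analysis of variance without moderation called 5 higher and 1 lower in shp63 ON and 0 in either direction with Nutlin-3. In shp63 ON that fit called 7.27% of all genes higher and 9.05% lower. Both comparisons use the same control arrays.

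**Figure D1:**
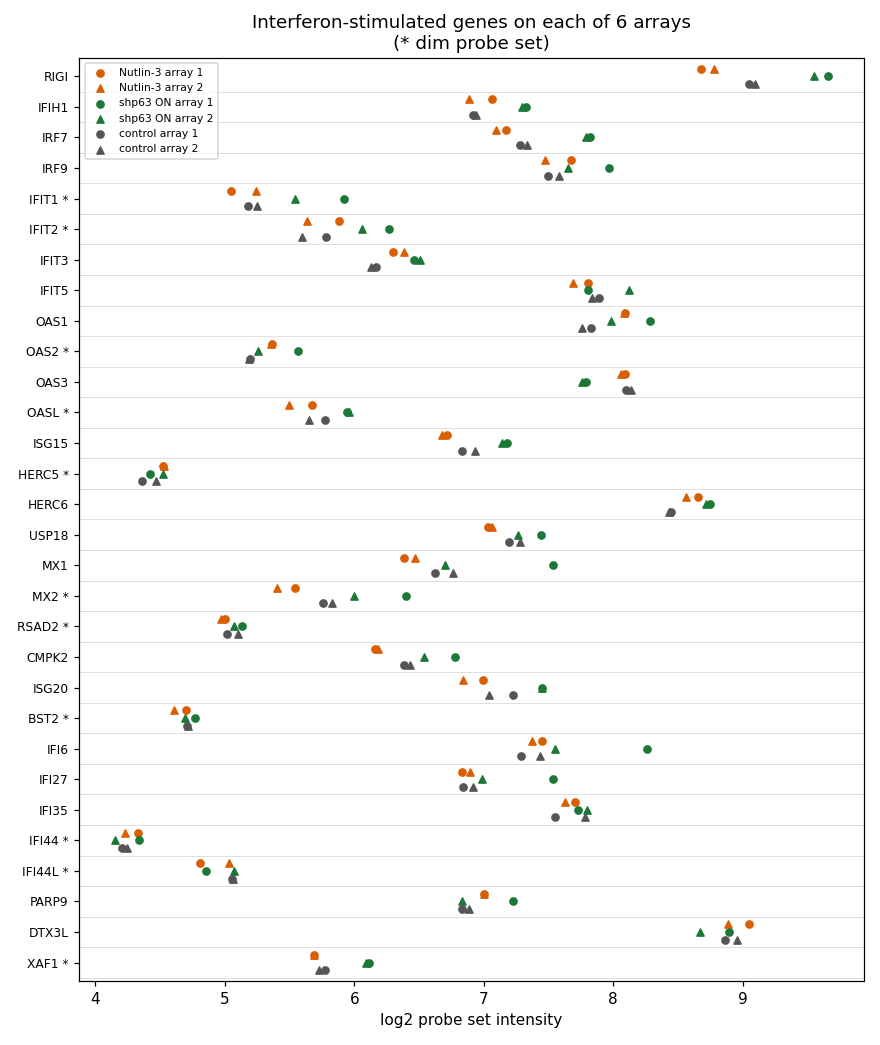
Log2 probe set intensity of 30 interferon-stimulated genes on each array (x axis), 1 row a gene. Circles and triangles are the 2 arrays of Nutlin-3 (orange), shp63 ON (green) and control (grey), and asterisks mark the 11 dim probe sets. RIGI and IRF7 have both green points to the right of both grey points, whereas for MX1 and IFI6 the green circle lies far to the right of the green triangle.

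Both RNA sensors were called higher in shp63 ON. RIGI, the cytoplasmic receptor RIG-I for viral RNA, measured 9.66 and 9.56 in shp63 ON and 8.68 and 8.78 with Nutlin-3, against 9.05 and 9.09 in control. Its mean was highest in shp63 ON and lowest with Nutlin-3. The rise in shp63 ON was 0.54 (SE 0.07, 1.45-fold, adjusted p = 0.00134), and it passed under all 18 alternative settings. With Nutlin-3 the difference was −0.34 (SE 0.07, adjusted p = 0.0145), and it passed in 13 of 18 settings, with adjusted p from 0.00229 to 0.0884. It was lost without control replicate 1, control replicate 2 or Nutlin-3 replicate 1, each fitted with fewer arrays, in the unmoderated analysis of variance, and with all probe sets tested. The gap between shp63 ON and Nutlin-3 was the largest of the list, at 0.88 (SE 0.07, 1.84-fold, adjusted p = 8.1e-05). IFIH1, the sensor MDA5 for long double-stranded RNA, measured 7.33 and 7.30 in shp63 ON and 7.07 and 6.89 with Nutlin-3, against 6.92 and 6.94 in control. The Nutlin-3 arrays lay on either side of the control arrays. Its rise in shp63 ON was 0.38 (SE 0.08, adjusted p = 0.00729) and passed in 17 of 18 settings.

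Of the transcription factors, IRF7 was called and IRF9 was not. IRF7, which drives the genes of interferon alpha, measured 7.82 and 7.79 in shp63 ON and 7.17 and 7.09 with Nutlin-3, against 7.28 and 7.33 in control. The order of the group means was the same as for RIGI. Its rise in shp63 ON was 0.50 (SE 0.06, 1.41-fold, adjusted p = 0.00124) and passed in 18 of 18 settings, whereas the difference with Nutlin-3, −0.18, did not pass (SE 0.06, adjusted p = 0.0996). Between shp63 ON and Nutlin-3 it differed by 0.67 (SE 0.06, adjusted p = 0.000166). IRF9, part of the complex that binds the response element, measured 7.97 and 7.65 in shp63 ON, against 7.50 and 7.58 in control. Its difference of 0.27 did not pass (95% interval 0.00 to 0.53, adjusted p = 0.105).

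IFIT proteins bind viral RNA ends and block their translation, and 3 of the 4 family members were called higher in shp63 ON. IFIT1 measured 5.92 and 5.54 in shp63 ON, against 5.18 and 5.25 in control, a difference of 0.52 (SE 0.13, adjusted p = 0.0168). IFIT2 measured 6.27 and 6.06 in shp63 ON, against 5.78 and 5.60 in control, a difference of 0.47 (SE 0.11, adjusted p = 0.0154). Both probe sets were dim, and in both the higher shp63 ON array was replicate 1. IFIT3 measured 6.46 and 6.51 in shp63 ON, 6.30 and 6.38 with Nutlin-3, against 6.16 and 6.13 in control. The Nutlin-3 arrays lay between the other groups, and the rise in shp63 ON was 0.34 (SE 0.06, adjusted p = 0.00664). With Nutlin-3 its difference of 0.20 did not pass (adjusted p = 0.0766), though it passed in 5 of 18 settings, among them cyclic loess normalization (adjusted p = 0.0368), under which 9.43% of all genes were called higher. IFIT5 measured 7.81 and 8.13 in shp63 ON, which lay on either side of the control arrays at 7.89 and 7.84.

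The OAS enzymes make short oligoadenylates that switch on RNase L, and they did not move as a family. OAS1 was higher in shp63 ON, at 8.28 and 7.98, and stood at 8.09 and 8.08 with Nutlin-3, against 7.83 and 7.76 in control. The difference was 0.33 in shp63 ON (SE 0.10, adjusted p = 0.0341, passing in 12 of 18 settings) and 0.29 with Nutlin-3 (adjusted p = 0.0834, passing in 5). OAS3 was the one member called lower in shp63 ON, at 7.79 and 7.76, with 8.09 and 8.06 for Nutlin-3, against 8.10 and 8.13 in control. Its difference of −0.34 (SE 0.06, adjusted p = 0.00488) passed in 18 of 18 settings, and it was also the one member called lower in shp63 ON than with Nutlin-3 (−0.30, adjusted p = 0.00491). OAS2 did not pass, with a dim probe set at 5.57 and 5.26 in shp63 ON, against 5.19 in both control arrays. OASL, a catalytically inactive relative that aids RIG-I, was dim and missed the threshold in shp63 ON (0.24, SE 0.08, adjusted p = 0.0535). It was called higher in shp63 ON than with Nutlin-3 (0.37, adjusted p = 0.00704), but not after cyclic loess (0.0568).

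ISG15 is a ubiquitin-like protein that is joined to other proteins, chiefly by HERC5 in human cells. Its gene measured 7.18 and 7.14 in shp63 ON and 6.72 and 6.68 with Nutlin-3, against 6.83 and 6.93 in control. The rise in shp63 ON was 0.28 (SE 0.07, adjusted p = 0.0149). HERC6, whose mouse counterpart is the main ISG15 ligase of that species, measured 8.75 and 8.71 in shp63 ON, against 8.45 and 8.43 in control (0.29, SE 0.06, adjusted p = 0.0116). HERC5 was dim and flat, at 4.42 and 4.52 in shp63 ON, against 4.36 and 4.47 in control. USP18, which removes ISG15 and restrains the type I receptor, did not pass against control in either comparison. It was called higher in shp63 ON than with Nutlin-3 (0.31, SE 0.08, adjusted p = 0.0135), but not after cyclic loess (0.057). USP18 has a near-identical copy in the genome, USP41P, and RNA of the copies cannot be told apart. A further probe set that names both, left out by the rule, measured 8.10 and 8.08 in shp63 ON and 8.13 on both Nutlin-3 arrays, against 8.19 and 8.24 in control, with shp63 ON lowest.

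Among the other effectors, MX2, ISG20 and XAF1 were called higher in shp63 ON. MX2, a dynamin-like GTPase that acts against retroviruses, measured 6.4 and 6.0 in shp63 ON and 5.54 and 5.40 with Nutlin-3, against 5.76 and 5.82 in control. Its rise in shp63 ON was 0.41 (SE 0.13, adjusted p = 0.0398) and passed in 8 of the 16 settings open to this dim probe set. ISG20, an exonuclease that degrades viral RNA, measured 7.45 on both shp63 ON arrays and 6.99 and 6.84 with Nutlin-3, against 7.22 and 7.04 in control (0.32, SE 0.09, adjusted p = 0.0233). XAF1, a binding partner of the apoptosis inhibitor XIAP, was dim but tightly measured, at 6.11 and 6.09 in shp63 ON and 5.69 on both Nutlin-3 arrays, against 5.77 and 5.73 in control. Its rise of 0.35 (SE 0.06, adjusted p = 0.00441) passed in all 17 settings that kept it. CMPK2, a mitochondrial nucleotide kinase, missed the threshold against control (0.25, SE 0.09, adjusted p = 0.0563), yet its 6.78 and 6.54 in shp63 ON were above 6.16 and 6.18 with Nutlin-3 (0.49, adjusted p = 0.00264).

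**Figure D2:**
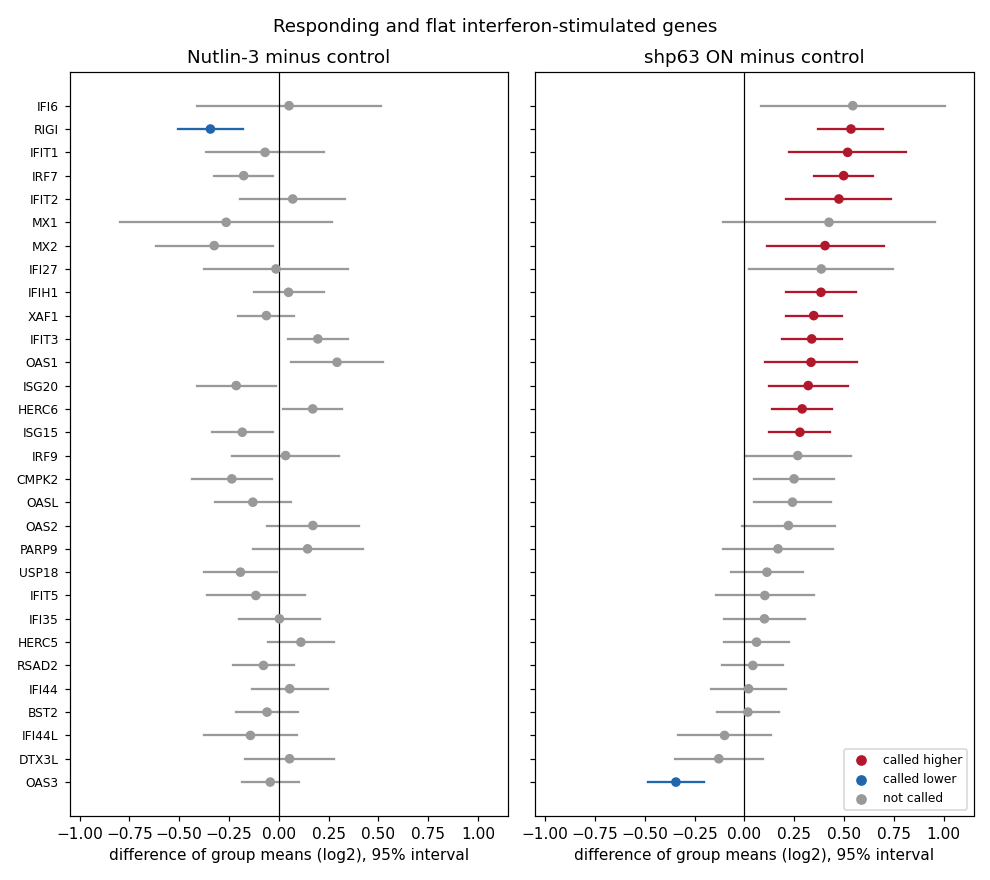
Difference of group means on the log2 scale (x axis) with its 95% interval for the 30 genes, ordered by shp63 ON minus control, for Nutlin-3 minus control (left) and shp63 ON minus control (right). In the right panel 12 genes are called higher (red) and OAS3 lower (blue), with IFI6, MX1 and IFI27 among the highest values but grey because of wide intervals. In the left panel RIGI alone is called.

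The remaining 17 members were flat by the rule used here, which is that neither comparison with control was called. For 14 of these the 95% intervals of both comparisons lay inside a 1.5-fold change in either direction, reaching at most 0.53 and at least −0.35 in shp63 ON and between −0.44 and 0.42 with Nutlin-3. The members called higher in shp63 ON rose by 1.21-fold to 1.45-fold, also inside that bound. It therefore excludes only larger changes and does not show that these 14 stayed level. The 14 members were IRF9, IFIT5, OAS2, OASL, HERC5, USP18, RSAD2, CMPK2, BST2, IFI35, IFI44, IFI44L, PARP9 and DTX3L. OASL and CMPK2 are in this set, since it was defined by calls, and after cyclic loess both differed by 0.12 in shp63 ON (adjusted p = 0.293 and 0.322). Dim probe sets made up 7 of the 14, and 4 of the 13 responding members. RSAD2, the antiviral enzyme viperin, measured 5.14 and 5.07 in shp63 ON, against 5.02 and 5.11 in control. BST2, the tetherin that holds budding virus at the membrane, measured 4.77 and 4.70 in shp63 ON, against 4.71 and 4.72 in control. IFI44 differed by 0.02 and IFI44L by −0.10 in shp63 ON, and both were dim. Of the flat members that were not dim, IFI35 differed by 0.10 (95% interval −0.10 to 0.31) and DTX3L by −0.13 (−0.35 to 0.09). DTX3L and PARP9 form a ubiquitin ligase and share a promoter, and PARP9 differed by 0.17 (−0.11 to 0.45).

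The other 3 flat members, MX1, IFI6 and IFI27, had intervals too wide to bound the change, because the shp63 ON arrays disagreed. MX1, a GTPase that blocks influenza virus, measured 7.54 and 6.70 in shp63 ON and 6.39 and 6.47 with Nutlin-3, against 6.62 and 6.76 in control. IFI6, a small membrane protein, measured 8.26 and 7.55 in shp63 ON, against 7.28 and 7.43 in control. IFI27, of the same small family, measured 7.54 and 6.99 in shp63 ON, against 6.84 and 6.91 in control. In each case shp63 ON replicate 1 stood well above every other array, and replicate 2 lay within or a little above the control values. These 3 members differed by more than 0.5 between the shp63 ON arrays, as did 0.408% of all genes.

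One shp63 ON array was the higher one for most of the list. Replicate 1 of shp63 ON was above replicate 2 in 23 of 30 members, with a median gap of 0.09, whereas over all genes 52.4% were higher on replicate 1 and the median gap was 0.01. In control the members leaned to replicate 2, with replicate 1 the higher in 9 of 30 (48.8% of all genes). With Nutlin-3 replicate 1 was the higher in 19 of 30, near the 56.6% over all genes. The median absolute gap of the members was 0.18 between the shp63 ON arrays, 0.08 between the Nutlin-3 arrays and 0.07 between the control arrays, against 0.08, 0.09 and 0.07 over all genes. Besides MX1, IFI6 and IFI27, the gap was 0.40 for MX2, 0.39 for PARP9, 0.38 for IFIT1, 0.31 for IRF9, 0.31 for OAS2 and 0.30 for OAS1. In IFIT5 replicate 2 was the higher, with a gap of −0.32. In contrast, the gap was between −0.05 and 0.10 for RIGI, ISG15, HERC6, IFIH1, IRF7, XAF1, ISG20 and IFIT3. It was also in that range for OASL, RSAD2 and BST2, which were flat. A small gap in itself favours a call. What sets the arrays apart was not tested.

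**Figure D3:**
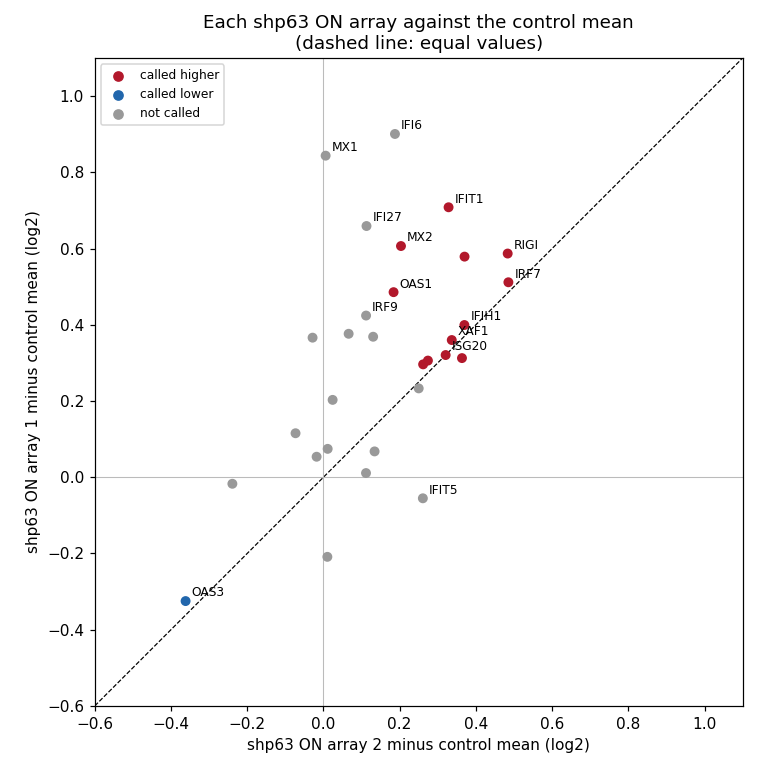
Log2 intensity minus the control mean on shp63 ON replicate 1 (y axis, array 1) and replicate 2 (x axis, array 2) for the 30 genes, with a dashed line where both are equal. RIGI, IRF7, IFIH1, XAF1 and ISG20 lie near the line at 0.3 to 0.6, while MX1, IFI6 and IFI27 lie high on the y axis at 0.66 to 0.90 and near 0 to 0.19 on the x axis.

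Leaving out any shp63 ON or control array changed the count, and in such a fit the lone array left in its group is assumed to vary like the other groups. Without shp63 ON replicate 1, 5 members were called higher, namely RIGI, IFIH1, IRF7, IFIT3 and XAF1, while 10.8% of all genes were. Without shp63 ON replicate 2, 18 were called higher, of which 11 were among the 12, and 13.2% of all genes were. The 7 that were added were IRF9, OAS2, MX1, CMPK2, IFI6, IFI27 and PARP9, which rest on the one shp63 ON array kept and so have no replicate there, and ISG20 was lost. The 12 also became 7 without control replicate 1 and 6 without control replicate 2, when 10.3% and 8.91% of all genes were called higher. RIGI, IFIH1, IRF7, IFIT3 and XAF1 were called higher whichever single array was left out.

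Rises in shp63 ON also depended on probe set intensity across the whole table. The median difference was 0.17 over all genes at an intensity of 6 to 7, and −0.06 at 8 to 9. Relative to the median of all genes in the same intensity band, 23 of 30 members were above and the median member was 0.14 above. By definition, as many genes of a band lie above its median as below it. None of the 12 called higher was under its band's median, but the calls fixed this in advance. The smallest of these rises, 0.28, was above the highest band median, 0.17. The excess was 0.59 for RIGI, 0.46 for IRF7, 0.40 for IFIT1 and 0.39 for OAS1, but 0.11 for ISG15 and 0.16 for IFIT3. After cyclic loess normalization, which removes such a trend, 8 of the 12 were still called higher, against 14.9% of all genes, and OAS3 was still called lower. IFIT2 (adjusted p = 0.0503), ISG20 (0.0581), ISG15 (0.0715) and MX2 (0.145) no longer passed.

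**Figure D4:**
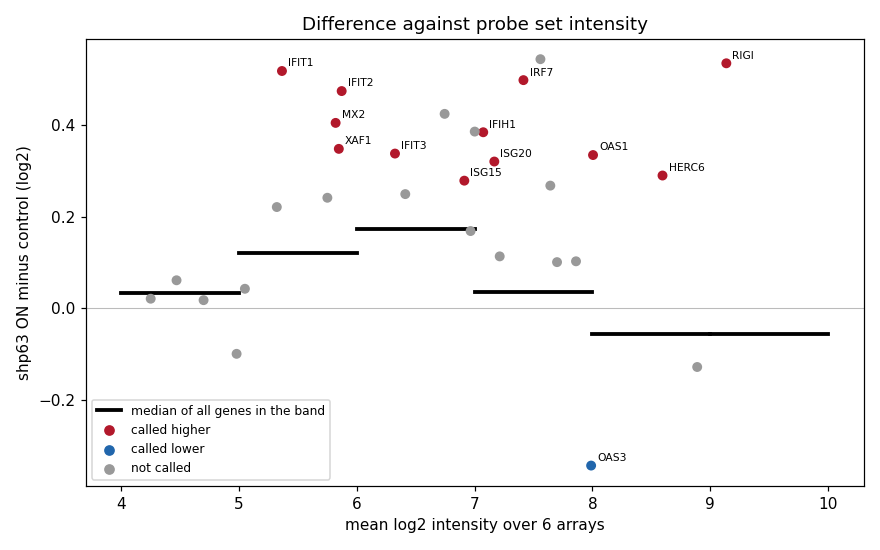
Difference between shp63 ON and control on the log2 scale (y axis) against the mean log2 intensity over 6 arrays (x axis) for the 30 genes, with black bars for the median of all genes in each intensity band (the outer bars stand for all genes under 5 and all at 9 or over). All 12 genes called higher (red) are above the bar of their band, and OAS3 (blue) is below its bar. Every bar lies between OAS3 and the smallest called rise, so these positions follow from the calls.

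Compared directly, shp63 ON stood above Nutlin-3 in more members than it stood below. Of 30 members, 13 were called higher and 1 lower, with a median of 0.27, while 27.5% of all genes were called higher and 24% lower (51.5% in all), with a median of 0.03. After cyclic loess, which lost IFIT2, OASL, USP18 and MX1 and added HERC6, 10 members were higher and 1 lower, against 45.9% of all genes called. RIGI, MX2 (0.73, SE 0.13, adjusted p = 0.00233), MX1 (0.69, SE 0.23, adjusted p = 0.0366) and IRF7 had the largest gaps. The MX1 call passed in 7 of 18 settings and was lost without any single array but shp63 ON replicate 2. IFIT3, OAS1 and HERC6, called higher in shp63 ON against control, were not called here, at 0.14 (95% interval −0.01 to 0.29), 0.04 (−0.19 to 0.27) and 0.12 (−0.03 to 0.27), though HERC6 passed after cyclic loess (adjusted p = 0.0374). In those 3 genes the Nutlin-3 arrays also lay above both control arrays, which the way they were picked makes likely. None of the 3 was called higher with Nutlin-3 against control (limma adjusted p = 0.0766, 0.0834 and 0.11).

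Genes of the same pathway outside the list changed in both directions. For the counts here and below, 19.7% of all genes were called higher and 16.5% lower in shp63 ON. With Nutlin-3 these shares were 9.64% and 8.89%. After cyclic loess they were 14.9% and 15.6% in shp63 ON, and 9.43% and 8.43% with Nutlin-3. Of 15 measured interferon genes, 4 were called higher in shp63 ON and 0 lower in limma, with no further gene at an unadjusted p under 0.05, and with Nutlin-3 1 was higher and 1 lower. At the top were the type III interferons, which act mainly on epithelium. IFNL2 measured 6.84 and 7.20 in shp63 ON and 6.07 and 6.24 with Nutlin-3, against 6.20 and 6.19 in control (0.82, SE 0.12, adjusted p = 0.00197). IFNL3 (0.44, SE 0.12, adjusted p = 0.029) and IFNL1 (0.43, SE 0.07, adjusted p = 0.0036) were also higher in shp63 ON, and all 3 kept their calls after cyclic loess. IFNL2 and IFNL3 are near-identical, so their probe sets may bind the same transcripts. Among all genes at an intensity of 6 to 7, where IFNL1 (6.81) and IFNL2 (6.46) lie, 34.7% were called higher in shp63 ON. The remaining call in shp63 ON was IFNA6, with a dim probe set (0.29, SE 0.08, adjusted p = 0.0221). IFNB1, the interferon most cells make first, was dim and did not pass in either comparison, at 0.20 in shp63 ON and 0.05 with Nutlin-3.

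Receptor genes were called in both directions in shp63 ON. Both chains of the type III receptor were called higher, IFNLR1 by 0.36 (SE 0.08, adjusted p = 0.0111) and IL10RB by 0.30 (SE 0.07, adjusted p = 0.0149). Both chains of the type I receptor were called lower, IFNAR2 with a difference of −0.52 (SE 0.10, adjusted p = 0.0057) and IFNAR1 with one of −0.26 (SE 0.08, adjusted p = 0.0325). IFNGR1, a chain of the type II receptor, was also lower (−0.23, SE 0.06, adjusted p = 0.0215). After cyclic loess IFNLR1 (adjusted p = 0.0624), IFNAR1 (0.0549) and IFNGR1 (0.106) missed the threshold. With Nutlin-3 the called receptor genes went the other way, IFNLR1 lower at −0.35 (SE 0.08, adjusted p = 0.0215) and IFNAR1 higher at 0.29 (SE 0.08, adjusted p = 0.0384). Of the kinases, JAK1 was called higher in shp63 ON (0.22, SE 0.06, adjusted p = 0.029), also after cyclic loess (0.00832). In all, 3 of 9 measured receptor and kinase genes were higher and 3 lower in shp63 ON, and 2 were higher and 1 lower after cyclic loess.

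Upstream sensing genes included 2 that rose under both treatments. TLR3, the endosomal receptor for double-stranded RNA, measured 9.06 and 8.99 in shp63 ON and 9.14 and 9.21 with Nutlin-3, against 8.27 and 8.32 in control. STING1, the adaptor of cytoplasmic DNA sensing, measured 9.72 and 9.73 in shp63 ON and 9.54 and 9.45 with Nutlin-3, against 9.04 and 9.16 in control. For TLR3 and STING1 the rises were 0.73 and 0.62 in shp63 ON and 0.88 and 0.40 with Nutlin-3 (SE 0.07 each). CGAS, the DNA sensor that feeds STING1, was lower in shp63 ON (−0.66, SE 0.15, adjusted p = 0.012) and with Nutlin-3 (−0.55, SE 0.15, adjusted p = 0.0384), the second not after cyclic loess (0.0558). Of 15 genes in this group, 2 were higher and 4 lower in shp63 ON (4 and 3 after cyclic loess), and 3 were higher and 1 lower with Nutlin-3 (3 and 0 after cyclic loess), the further rise being IFI16. TBK1, the kinase that activates IRF3 and IRF7, was lower in shp63 ON (−0.32, SE 0.08, adjusted p = 0.0147). Among 10 negative regulators, SOCS1 was higher in shp63 ON (0.34, SE 0.06, adjusted p = 0.00646), and TNFAIP3 (−0.46) and PTPN2 (−0.34) were lower. With Nutlin-3 the one call in that group was IRF2, higher by 0.26, and it was lost after cyclic loess (adjusted p = 0.0621).

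**Figure D5:**
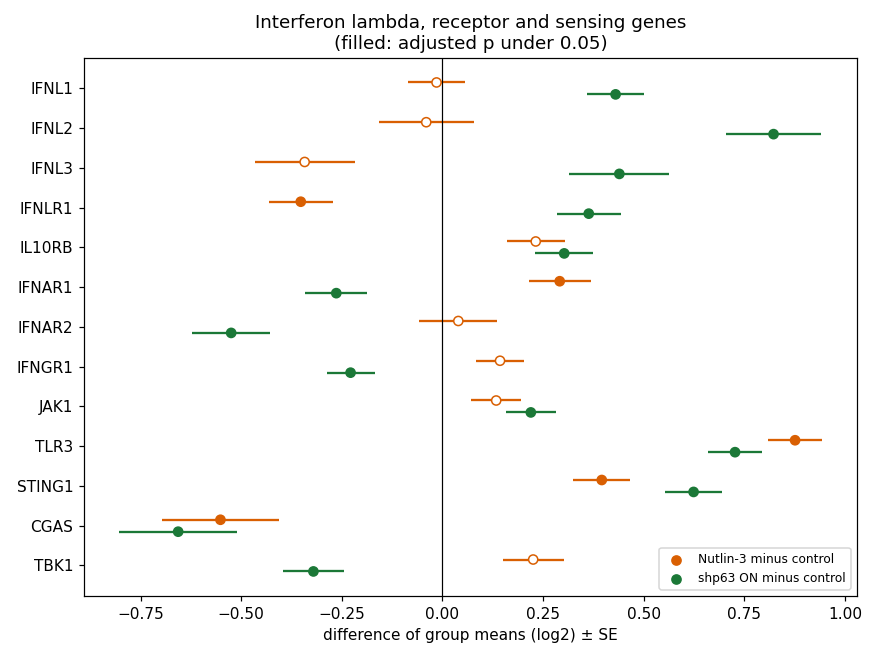
Difference of group means from control on the log2 scale ± SE (x axis) for 13 interferon lambda, receptor, kinase and sensing genes, with Nutlin-3 in orange and shp63 ON in green. Filled points passed at an adjusted p under 0.05. The IFNL genes and IFNLR1 are right of 0 in shp63 ON, IFNAR1 and IFNAR2 are left of 0, and TLR3 and STING1 are right of 0 under both treatments.

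A further 36 interferon-stimulated genes outside the list gave 9 higher and 6 lower in shp63 ON in limma, against 19.7% and 16.5% of all genes. With Nutlin-3, 8 were called higher and 0 lower, against 9.64% and 8.89% of all genes. There 13 had an unadjusted p under 0.05 in either direction, against 32.9% of all genes. The largest changes in shp63 ON were DDX60L, a helicase relative (0.86, SE 0.06), PNPT1, a mitochondrial exonuclease (−0.85, SE 0.06), LGALS9, a galectin with a dim probe set (0.71, SE 0.16), and SAMHD1, a nucleotide hydrolase (−0.71, SE 0.09). With Nutlin-3 they were TRIM22 (1.37, SE 0.09), LGALS9 (0.92, SE 0.16), PML, the scaffold of nuclear bodies (0.60, SE 0.06), and TRIM5, a retroviral capsid sensor (0.57, SE 0.06). Of those 4, LGALS9 was also called in shp63 ON.

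Leukocyte markers were low but not all level. Of 11 measured, 3 were called higher in shp63 ON and 0 lower in limma (4 in either direction at an unadjusted p under 0.05). They were CD14 (0.62, SE 0.08), NKG7 (0.52, SE 0.07) and CSF1R (0.45, SE 0.09), the last with a dim probe set. Beside these counts and those of the other markers, 19.7% of all genes were called higher and 16.5% lower. At an unadjusted p under 0.05, 46.9% of all genes passed in limma. The mean log2 intensity over the 11 ran from 5.75 to 5.77 in shp63 ON and from 5.48 to 5.56 with Nutlin-3, against 5.53 to 5.61 in control. PTPRC, the pan-leukocyte surface phosphatase, was under the floor. Some markers of other cell types were called too. Of 8 squamous markers 2 were higher in shp63 ON, PKP1 (0.36, SE 0.07) and KRT15 (0.32, SE 0.06). The 3 lower ones were S100A2, a calcium-binding protein (−2.13, SE 0.13), DSG3, a desmosomal cadherin (−0.73, SE 0.06), and KRT5 (−0.37, SE 0.07). The mean of the 8 ran from 8.62 to 8.71 in shp63 ON and from 9.49 to 9.54 with Nutlin-3, against 8.99 to 9.02 in control. Their median difference in shp63 ON was only −0.09. Of 8 fibroblast markers 3 were higher and 1 lower in shp63 ON, none of which passed after cyclic loess, and of 6 endothelial markers 2 were higher, including the endothelial cadherin CDH5 (0.57, SE 0.08). Of 5 mesothelial markers 2 were higher and 1 lower. All 6 arrays hold RNA of 1 cultured line, so these lists are read here as transcripts and not as counts of cell types. Their part in the differences above was not tested. In bulk RNA, more RNA per cell cannot be told apart from more cells that carry a transcript.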

How the data were processed

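The authors deposited 1 table of log2 probe set intensities for the 6 arrays, which the labels credit to Partek with no version. How Partek corrected, summarised and normalized the intensities is not stated in these sources, and the values were used as deposited. Of 32321 probe sets, 19158 name exactly 1 gene in the platform annotation, 1388 several and 11775 none. A gene with several such probe sets was represented by its brightest one on average, which left 18404 genes. Array medians were 6.57 to 6.70, and the number of arrays limits the precision.

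The 3 groups shared a single linear model (limma 3.58.1, R 4.3.3, lmFit and eBayes) without covariates, with 3 residual degrees of freedom and 4.52 prior ones, and p-values were adjusted by Benjamini-Hochberg over 18404 genes in each of 3 comparisons. The steps were tested on simulated data with independent normal noise, and no recovery rate is given here for rises of the size called in shp63 ON. All members are named, and a member responds if called against control in either comparison. Pathway genes are named only where called, at most 4 per list and comparison, largest change first. The exceptions are IFNB1, named for its role, and the receptors and kinases, whose calls in shp63 ON are all named. The members, lists and tests were chosen with earlier results of these data known. There were 18 alternatives. Replicate numbers are shared across groups, but deviations from the group means correlated at −0.06 to 0.11 between same-numbered arrays, so a number was not used as a block in the results given. Promoters were read from RefSeq with GRCh38.p14 coordinates.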

Additional observations from a re-analysis of the deposited data

How the results depend on the processing

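Of 30 members, 12 higher in shp63 ON than in control became 5 without shp63 ON replicate 1, 18 without shp63 ON replicate 2, 7 without control replicate 1 and 6 without control replicate 2, a range of 5 to 18 over single arrays left out. They became 5 in the unmoderated analysis of variance, and 8 after cyclic loess and with all probe sets tested. In those fits 7.27%, 14.9% and 12.4% of all genes were called higher. The median difference fell to 0.159 without shp63 ON replicate 1. With Nutlin-3, the count called higher was 3 with array median centring, 1 with quantile normalization, cyclic loess, an intensity trend, only the 2 groups fitted or either filter on dim genes, and 0 to 1 with single arrays left out. The count called lower was 0 in the analysis of variance and with all probe sets, 2 with only the 2 groups, and 0 to 2 with single arrays left out (0 without control replicate 1, control replicate 2 or Nutlin-3 replicate 1, and 2 without either shp63 ON array). Between shp63 ON and Nutlin-3, 6 were higher in the analysis of variance, 11 to 16 with single arrays left out, and 2 were lower with array median centring. With the replicate number as a block, 13 were higher and 1 lower in shp63 ON against control, 0 and 1 with Nutlin-3, and 13 higher in shp63 ON against Nutlin-3; the arrays share only a number. No member's called difference reversed its sign. Dim probe sets, 11 of the 30, bound what could be seen in those genes, and no depth is defined for arrays.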
